A study of Homo sapiens with 6 samples.

Results

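The receptor genes MET, MST1R, FGFR1, FGFR2, FGFR3, FGFR4, FGFRL1, PDGFRA, PDGFRB and PDGFRL were followed by name in a table of counts for 63140 genes, in which all 10 were found. NOZ-R, a gallbladder cancer line made resistant to the nucleoside analogue gemcitabine through rising doses in steps, was compared with NOZ, the established human gallbladder cancer line it came from. Each line had 3 RNA-seq libraries of poly-A RNA. The final dose, whether gemcitabine was present at harvest, whether NOZ-R is 1 clone and whether the replicates were separate cultures were not stated in the sources used here, so p-values reflect variation among the 6 libraries alone, and this may be technical.

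Receptor tyrosine kinases carry a signal across the cell membrane: a ligand pairs receptors outside the cell, and the paired kinase domains phosphorylate each other inside it. MET is the receptor of hepatocyte growth factor (HGF), and MST1R, also called RON, is the receptor of the related ligand MSP, encoded by MST1; both are known in epithelia such as that of the bile ducts. FGFR1 to FGFR4 bind fibroblast growth factors together with heparan sulfate, and FGFRL1 binds them but has no kinase domain. PDGFRA and PDGFRB bind dimers of platelet-derived growth factor chains and are best known from fibroblasts and pericytes, while PDGFRL resembles only an outer part of these receptors and has no kinase domain.

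Depth was similar in both lines, with total counts of 15661532 to 18855409 in NOZ-R and 14136037 to 19244923 in NOZ. Levels are given as CPM, the count relative to a library size that was scaled for composition, when 1 gene is compared between lines, and as the authors' FPKM, which also divides by gene length, when different genes are compared. For NOZ replicate 2 the rank correlation across genes between deviation from the line's mean and transcript GC content was -0.560. It was 0.371 and 0.424 in NOZ replicates 1 and 3 and -0.257 to 0.351 in NOZ-R. Deviations within a line share 1 mean, so the 3 values of a line depend on each other. The biliary label was checked on 10 epithelial markers: KRT7, KRT8, KRT18, KRT19, EPCAM and CLDN4 each averaged 49.5 CPM or more in both lines, while CDH1 (E-cadherin) averaged 0.290 CPM in NOZ-R and 1.03 CPM in NOZ. Of the 9 tested epithelial markers 4 were higher and 3 lower, among them CDH1, which entered the test only through its NOZ counts, and the list summed to 3535 to 3621 CPM in NOZ-R and 2678 to 3156 CPM in NOZ.

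Of the 10 receptor genes, 7 had enough counts to be tested. MET was lower in NOZ-R, and FGFR1, FGFR3, FGFRL1 and PDGFRL were higher. MST1R and PDGFRB did not pass (quasi-likelihood test of edgeR, p adjusted by Benjamini-Hochberg over 14386 tested genes, threshold 0.05). Among all tested genes 30.4% were called higher and 29.8% lower, so 60.2% were called in either direction, and 5 of 7 receptors is a share near that background. These shares are also the background for the counts of calls in each list of genes. With scaling by library size alone 3316 genes were called higher and 5468 lower, against 4379 and 4284 with composition factors, and the same 5 receptors passed. The same 5 did not overlap in CPM between the lines, as was true of 65.3% of all tested genes. FGFR3 and PDGFRL entered the test only through their NOZ-R counts, so they had to differ, and their calls are a description. FGFR2, FGFR4 and PDGFRA had too few counts.

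**Figure D1:**
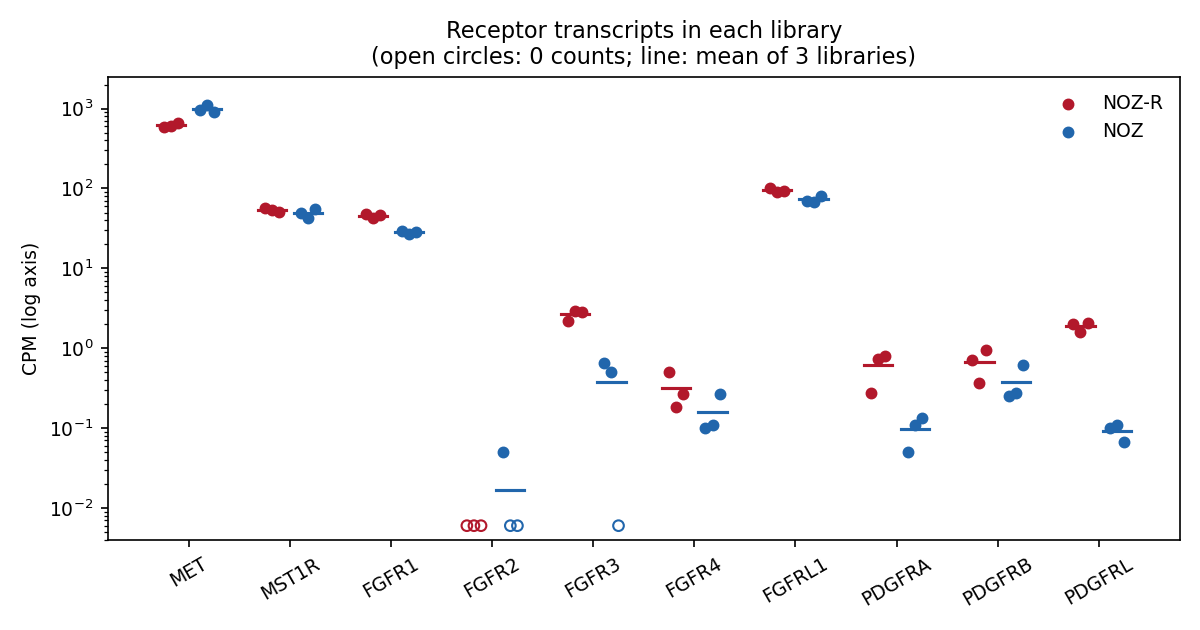
CPM (log axis) of each receptor gene in the 3 NOZ-R and the 3 NOZ libraries, with the mean as a line and libraries with 0 counts as open circles at the bottom. MET lies far above the others, at 591 to 658 CPM in NOZ-R and 917 to 1101 CPM in NOZ, and the 4 lowest genes in NOZ-R (FGFR2, FGFR4, PDGFRA and PDGFRB) stay below 1 CPM in every library.

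MET fell, and it was the most abundant of the 10 in both lines. MET (chromosome 7, 116672390 to 116798386, plus strand, GRCh38) measured 591, 614 and 658 CPM in NOZ-R replicates 1 to 3, against 952, 1101 and 917 CPM in NOZ replicates 1 to 3. Every NOZ-R library was below every NOZ library. The log2 fold change was -0.67 ± 0.0674 (SE; adjusted p by edgeR 1.41e-06), which puts NOZ-R at 62.7% of the NOZ level. The highest NOZ value came from replicate 2, the library whose deviation correlated negatively with GC content. The MET transcript is 42.4% GC, below the median of 48.4%. The part of GC content in that value was not tested. Without NOZ replicate 2 the log2 fold change was -0.59 (adjusted p by edgeR 1.73e-10). Transcripts of the other tested receptors were above the same median, from 52.2% GC for PDGFRL to 63.5% for FGFRL1. For MST1R, FGFR1 and FGFRL1, NOZ replicate 2 was the lowest NOZ library, and for FGFR3, PDGFRB and PDGFRL it was not. The part of GC content in their values was not tested either. By mean CPM, MET ranked 190 among all genes in NOZ-R and 75 in NOZ.

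Of 5 tested genes centred within 1 Mb of MET on either side, 3 were lower and 1 was higher, with a median log2 change of -0.45, and the median of the 597 tested genes of chromosome 7 was -0.26. CAPZA2, a capping protein of actin filaments that starts 12.7 kb beyond MET, fell by 0.53 in log2 units (adjusted p by edgeR 0.000362). On the other side CAV1, the main protein of caveolae, rose by 0.18 (adjusted p by edgeR 0.0230). The part of the chromosome's level in the MET difference was not tested. The 2 transcripts whose log2 CPM, centred on the mean of the 6 libraries, ran closest to MET among 8955 genes were RPS24, a ribosomal protein gene, and TOP2A, a DNA topoisomerase gene, with root mean square differences of 0.0195 and 0.0256. Their log2 fold changes were -0.67 and -0.69.

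MST1R, the receptor most like MET, did not pass the test. MST1R (chromosome 3, 49887002 to 49903873, minus strand) had 56.8, 53.4 and 50.4 CPM in the NOZ-R libraries, against 49.9, 42.8 and 55.8 CPM in the NOZ libraries. The lines overlapped. Its log2 change of 0.12 ± 0.0921 did not pass (SE; adjusted p by edgeR 0.291), and its sign turned with scaling by library size alone (-0.012). Exons of MST1R share 327 bases with an antisense gene model in the annotation, whose reads could not be told apart without strand.

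Promoter sequences are shown for MET, which fell, and for FGFR3 and FGFRL1, which were higher, so that windows of receptors that moved in opposite directions can be read side by side. Each is the 300 bases from 250 before to 50 after a start listed for the gene in RefSeq (GRCh38.p14), 5′ to 3′, and all 3 genes lie on the plus strand: chr7:116671946-116672245 for MET, chr4:1793043-1793342 for FGFR3 and chr4:1012214-1012513 for FGFRL1. The FGFRL1 window lies wholly inside the annotated gene, which starts at 1009936, so it is not the region before the outermost start. The MET window lies wholly before the annotated gene, which starts at 116672390. Which start the transcripts used was not tested. Capitals mark GC boxes, the letters GGGCGG or their reverse complement CCGCCC, with overlapping matches allowed.
MET: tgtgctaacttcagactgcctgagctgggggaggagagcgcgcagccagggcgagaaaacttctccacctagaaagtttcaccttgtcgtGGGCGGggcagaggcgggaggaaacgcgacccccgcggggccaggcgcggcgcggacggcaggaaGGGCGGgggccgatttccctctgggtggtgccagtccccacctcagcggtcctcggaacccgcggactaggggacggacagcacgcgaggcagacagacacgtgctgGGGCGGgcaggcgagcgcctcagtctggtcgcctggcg
FGFR3: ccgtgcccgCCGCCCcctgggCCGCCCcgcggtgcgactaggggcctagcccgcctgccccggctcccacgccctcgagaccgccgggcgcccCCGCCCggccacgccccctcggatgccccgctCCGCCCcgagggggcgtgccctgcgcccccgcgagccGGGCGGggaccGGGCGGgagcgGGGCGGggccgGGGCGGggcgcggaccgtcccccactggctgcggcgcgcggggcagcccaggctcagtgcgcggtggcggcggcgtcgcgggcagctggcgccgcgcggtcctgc
FGFRL1: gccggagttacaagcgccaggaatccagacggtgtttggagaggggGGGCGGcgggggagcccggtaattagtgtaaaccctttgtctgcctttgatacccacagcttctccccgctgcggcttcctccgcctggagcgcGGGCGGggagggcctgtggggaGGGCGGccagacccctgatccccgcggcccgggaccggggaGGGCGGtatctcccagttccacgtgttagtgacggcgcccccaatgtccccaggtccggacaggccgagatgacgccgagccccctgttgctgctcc
Of the 10 receptors, 8 were matched in the RefSeq table. The window of MET held 3 such matches, that of FGFR3 held 8 and that of FGFRL1 held 4, while 45.0% of 35116 promoters held at least 1 and 15.8% held 3 or more. The FGFR3 window was 86.3% G or C, against 69.3% for MET and 68.3% for FGFRL1. Neither TATAAA (11.5% of promoters, both strands) nor the AP-1 letters TGACTCA (4.95%, both strands) was in any of the 3 windows. Among receptors without a call, GC boxes numbered 5 for MST1R, 2 for PDGFRB and 7 and 0 for FGFR4. They numbered 0 and 2 for PDGFRA and 0 to 5 for FGFR2, whose windows are not shown either. A link of GC boxes to direction was not tested.

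Among the 4 FGF receptors with a kinase, FGFR1 carried most of the signal and rose in NOZ-R. FGFR1 (chromosome 8, 38400215 to 38468834, minus strand) had 47.4, 42.4 and 46.5 CPM in the NOZ-R libraries, against 29.5, 26.9 and 28.8 CPM in the NOZ libraries. The lowest NOZ-R value lay well above the highest NOZ value. The log2 fold change was 0.68 ± 0.0782 (SE; adjusted p by edgeR 5.27e-06), a 1.60-fold higher level. FGFR1 shares 138 bases of exon with LETM2 on the opposite strand, which averaged 14.8 CPM in NOZ-R and 11.9 CPM in NOZ with a log2 change of 0.30 that did not pass (adjusted p by edgeR 0.0571). The other neighbour, TACC1, a coiled-coil gene, rose by 0.22 (adjusted p by edgeR 0.00934). The transcripts closest to FGFR1 by the same measure as for MET were TOMM40, a mitochondrial import pore gene (0.0255), and IL4R, the interleukin-4 receptor gene (0.0304).

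FGFR3 also rose, at few counts. FGFR3 (chromosome 4, 1793293 to 1808872, plus strand) had 40, 47 and 42 counts in the NOZ-R libraries, against 13, 9 and 0 counts in the NOZ libraries. That is 2.65 CPM ± 0.380 in NOZ-R and 0.383 CPM ± 0.340 in NOZ (SD, n = 3 each), so all 3 NOZ-R libraries were above all NOZ libraries, while the SD of the NOZ libraries was close to their mean. The log2 fold change was 2.66 ± 0.460 (SE; adjusted p by edgeR 0.000212). It was 2.19 without NOZ replicate 3, the library with 0 counts, and 3.25 without NOZ replicate 1, both past the threshold. Its neighbours TACC3 and LETM1, which lie 48.1 and 2.61 kb away, had log2 fold changes of 0.08 and 0.35, of which that of LETM1 passed (adjusted p by edgeR 0.000716).

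FGFR2 and FGFR4 were close to silent in both lines. FGFR2 (chromosome 10, 121478334 to 121598458, minus strand) had 0 counts in every NOZ-R library and 1, 0 and 0 counts in the NOZ libraries, and 0 counts over the NOZ-R libraries allows a level of up to 0.0610 CPM. All 5 tested genes within 1 Mb of FGFR2 were lower in NOZ-R, with a median log2 change of -0.85, and the median of chromosome 10 was -0.58. FGFR4 (chromosome 5, 177086886 to 177098144, plus strand) had 9, 3 and 4 counts in the NOZ-R libraries, against 2, 2 and 4 in the NOZ libraries, a ratio of 2.15 with an exact 95% interval from counting of 0.868 to 5.80. No difference in FGFR4 was detectable at this depth. ESRP1 and ESRP2, splicing regulators known to favour the epithelial form of FGFR2, had 5.29 and 7.35 CPM in NOZ-R, against 0.371 and 7.33 CPM in NOZ. ESRP1 had 87, 91 and 81 counts in the NOZ-R libraries, against 6, 11 and 3 in the NOZ libraries. Its log2 change was 3.78 ± 0.290 (SE; adjusted p by edgeR 1.03e-07), and since it entered the test only through its NOZ-R counts, that call is a description. The log2 change of ESRP2 was 0.01 (adjusted p by edgeR 0.973, with a sign that turned with scaling by library size alone). With FGFR2 at 0 or 1 count there was no transcript on which a splice form could be seen, and counts per gene do not resolve the forms of the other FGF receptors.

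The mix of the 4 kinase receptors differed between the lines. FGFR1 made up 83.1%, 79.4% and 80.9% of their summed FPKM in the NOZ-R libraries, against 91.6%, 92.5% and 96.8% in the NOZ libraries. FGFR3 made up 13.8%, 19.3% and 17.4% in NOZ-R, against 7.16%, 6.09% and 0% in NOZ, so neither share overlapped between the lines. FGFR4 took 2.01% ± 0.983 in NOZ-R and 1.91% ± 1.17 in NOZ (SD, n = 3 each). These shares depend on the lengths implied by the authors' FPKM, which were 17201 bases for FGFR1 and 4848 bases for FGFR3: with CPM in place of FPKM, FGFR3 made up 5.50% in NOZ-R and 1.32% in NOZ.

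FGFRL1, the FGF receptor without a kinase domain, was more abundant than FGFR1 per length (20.9 against 2.52 FPKM in NOZ-R) and also rose. FGFRL1 (chromosome 4, 1009936 to 1026897, plus strand) had 100.7, 90.9 and 93.3 CPM in the NOZ-R libraries, against 69.5, 68.6 and 81.3 CPM in the NOZ libraries. The lines did not overlap, although NOZ replicate 3 came close. The log2 fold change was 0.38 ± 0.0760 (SE; adjusted p by edgeR 0.000702), a 1.30-fold higher level, and with scaling by library size alone it was 0.25 (adjusted p by edgeR 0.0120). Its neighbours IDUA and RNF212 had log2 fold changes of -0.07 and -0.12 that did not pass (adjusted p by edgeR 0.836 and 0.283). B4GALT2, a galactosyltransferase gene, and E2F4, a cell cycle transcription factor gene, were closest to its pattern, with root mean square differences of 0.0292 and 0.0372.

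The receptors of PDGF were barely detected in either line, and the kinase-free PDGFRL showed the greatest fold change of the 7 tested genes. PDGFRL (chromosome 8, 17576433 to 17644071, plus strand) had 36, 26 and 31 counts in the NOZ-R libraries, against 2, 2 and 1 counts in the NOZ libraries. This corresponds to 1.89 CPM ± 0.249 in NOZ-R and 0.0928 CPM ± 0.0224 in NOZ (SD, n = 3 each), with no overlap. The log2 fold change was 4.22 ± 0.436 (SE; adjusted p by edgeR 1.88e-06), and the ratio of the summed counts was 20.0 with an exact 95% interval from counting of 8.27 to 63.0. The SE can understate the error, since the NOZ value rests on 5 counts.

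The gene next to PDGFRL also rose. SLC7A2, a cationic amino acid transporter gene that ends 5.86 kb before PDGFRL, averaged 21.2 CPM in NOZ-R and 1.04 CPM in NOZ, with a log2 change of 4.33 ± 0.160 (SE; adjusted p by edgeR 6.28e-11). MTUS1, on the opposite strand, shares 277 bases of exon with PDGFRL and fell by 0.69 in log2 units (adjusted p by edgeR 9.41e-05). Of the 9 tested genes within 1 Mb, 2 were higher and 3 were lower; their median was -0.03. Reads of PDGFRL and MTUS1 in the shared part could not be told apart without strand.

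PDGFRA (chromosome 4, 54229097 to 54298247, plus strand) had 5, 12 and 12 counts in the NOZ-R libraries, against 1, 2 and 2 counts in the NOZ libraries. The libraries of the lines did not overlap, and the ratio of the summed counts was 6.24 with an exact 95% interval from counting of 2.39 to 20.6. It was too low for the filter. With no filter its log2 fold change was 2.56 ± 0.754 (SE; adjusted p by edgeR 0.00314), and the DESeq2 Wald test gave 2.66 (adjusted p = 0.0228). Exons of PDGFRA share 1533 bases with another gene model on the same strand, so its few counts are uncertain. PDGFRB (chromosome 5, 150113837 to 150155872, minus strand) had 13, 6 and 14 counts in the NOZ-R libraries, against 5, 5 and 9 counts in the NOZ libraries. The lines overlapped, and the log2 change of 0.88 ± 0.502 did not pass (SE; adjusted p by edgeR 0.147). Of the 22 tested genes within 1 Mb of PDGFRB, 15 rose and none fell, and the median log2 change was 0.48, while the median of chromosome 5 was -0.02.

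Markers of the cells best known for PDGF receptors were measured beside these genes. Among 9 fibroblast markers 4 could be tested, of which COL3A1, FAP and POSTN were higher and none was lower. These 3 entered the test only through their NOZ-R counts, so their calls are a description. COL3A1 had 51, 66 and 38 counts in NOZ-R, against 7, 1 and 11 in NOZ. COL1A1, the other tested marker, went the other way, with 34, 25 and 29 counts in NOZ-R, against 50, 55 and 33 in NOZ. Its log2 change of -0.54 did not pass (adjusted p by edgeR 0.0548). COL1A1 averaged 1.79 CPM in NOZ-R and 2.59 CPM in NOZ, which is most of the summed NOZ level of the list. FAP and POSTN had 0 counts in NOZ. Their NOZ-R levels were 18.3-fold and 63.4-fold a floor of 3 counts over the NOZ libraries. The exact 95% lower limits of their ratios from counting were 14.3 and 51.1. The summed level of the 9 was 10.6 to 11.2 CPM in NOZ-R and 2.85 to 3.10 CPM in NOZ. Of the 5 markers that were not tested, DCN had 19, 12 and 6 counts in NOZ-R and none in NOZ. That is 13.3-fold the same floor, with an exact lower limit of 10.3. LUM had 5, 6 and 14 counts in NOZ-R and none in NOZ, 8.96-fold the floor with an exact lower limit of 6.76. PDPN had 0 counts in every library, THY1 had 1, 0 and 0 counts in NOZ-R and none in NOZ, and COL1A2 had 3, 1 and 0 counts in NOZ-R and none in NOZ. Of 10 pericyte and smooth muscle markers, 6 were tested, 4 were higher (CSPG4, MCAM, NOTCH3 and RGS5) and 2 were lower (ACTA2 and MYH11). NOTCH3 entered the test only through its NOZ-R counts. The summed level of the 10 was 98.7 to 102.9 CPM in NOZ-R and 42.8 to 45.4 CPM in NOZ. Most of it came from CSPG4 (73.2 CPM in NOZ-R and 27.4 in NOZ) and MCAM (19.1 and 8.18 CPM). Of the 4 not tested, CNN1 had 7, 5 and 1 counts in NOZ-R, against 15, 13 and 4 in NOZ. Its ratio was 0.437 with an exact 95% interval from counting of 0.210 to 0.856. ABCC9 had 15, 8 and 12 counts in NOZ-R, against 3, 5 and 0 in NOZ. DES had 10, 1 and 6, against 2, 0 and 0, and KCNJ8 had 0 counts in every library. Of 9 leukocyte and endothelial markers, 2 were tested; PECAM1 was higher and CD14 did not pass. PTPRC, the common leukocyte antigen CD45, had 4, 2 and 5 counts in NOZ-R, against 28, 14 and 7 in NOZ, a ratio of 0.241 with an exact 95% interval from counting of 0.113 to 0.471. CLDN5 had 0 counts in NOZ-R, against 2, 4 and 0 in NOZ. CD3E, CD68, CDH5, VWF and KDR did not exceed 13 counts in any library. The summed level of the 9 was 12.4 to 14.4 CPM in NOZ-R and 5.04 to 8.19 CPM in NOZ. The part of these markers in the PDGF receptor values was not tested, and in bulk RNA more cells of a kind and more RNA per cell cannot be told apart.

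Set against each other per length, the 10 receptors kept the order of their upper members in both lines. In NOZ-R the means were 82.0 FPKM for MET, 20.9 for FGFRL1, 9.55 for MST1R, 2.52 for FGFR1, 0.747 for PDGFRL and 0.521 for FGFR3. The ranges of these 6 over the 3 libraries did not touch. PDGFRB (0.0905 FPKM), FGFR4 (0.0630) and PDGFRA (0.0607) followed with overlapping ranges, and FGFR2 was listed at 0. In NOZ the same 4 genes led, with 143.0 FPKM for MET, 17.6 for FGFRL1, 9.65 for MST1R and 1.72 for FGFR1, again without overlap. FGFR3, PDGFRB, PDGFRL and FGFR4 lay between 0.0348 and 0.0823 FPKM, each overlapping its neighbour in the order, PDGFRA had 0.0108 and FGFR2 had 0.000921 FPKM.

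MET was the most abundant of 58 receptor tyrosine kinases in NOZ and the third in NOZ-R. In NOZ-R, MET at 82.0 FPKM (range 78.5 to 86.7) lay below AXL at 128.7 (range 127.9 to 129.3) and EPHA2 at 92.9 (range 89.7 to 95.8). In NOZ, MET at 143.0 FPKM (range 132.5 to 159.4) lay above AXL at 95.2 (range 89.8 to 98.6) and EPHA2 at 52.4 (range 45.5 to 56.4). None of these ranges overlapped within a line. AXL, a receptor for GAS6, rose by 0.56 ± 0.0510 in log2 units and the ephrin receptor EPHA2 rose by 0.96 ± 0.0739 (SE; adjusted p by edgeR 5.19e-07 and 1.10e-07). MET took 18.5%, 19.3% and 20.2% of the summed FPKM of the 58 kinases in the NOZ-R libraries, against 32.4%, 37.2% and 31.4% in the NOZ libraries. FGFR1 took 0.594% ± 0.0316 in NOZ-R and 0.406% ± 0.0213 in NOZ (SD, n = 3 each).

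**Figure D2:**
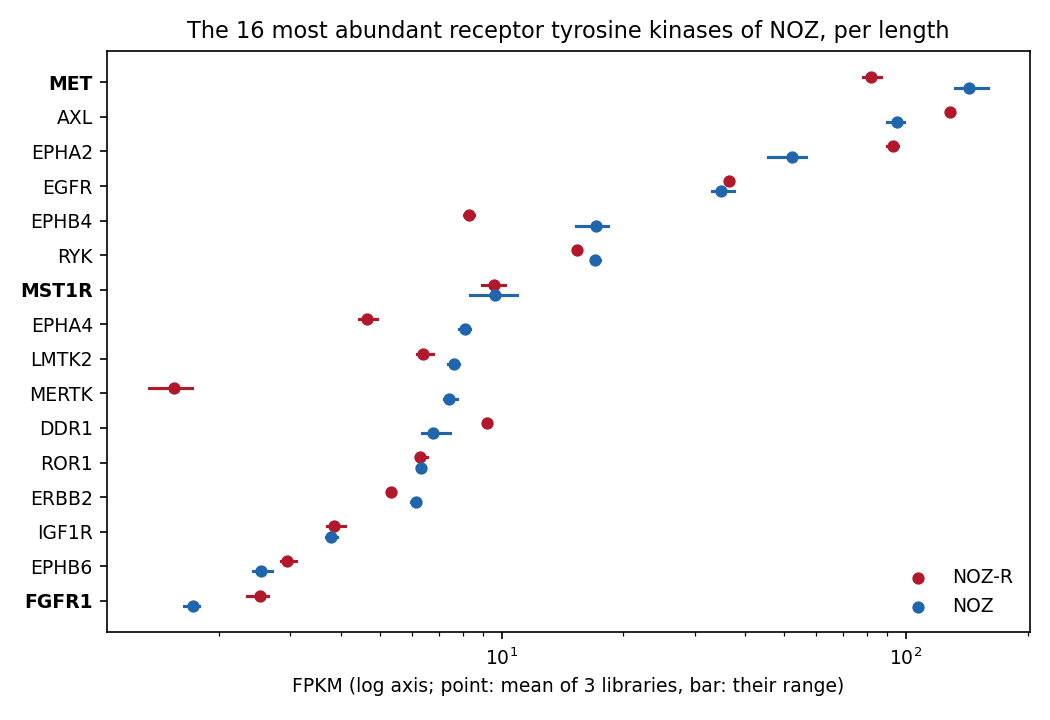
FPKM (log axis) of the 16 receptor tyrosine kinases that were most abundant in NOZ, with the mean of 3 libraries as a point and their range as a bar, NOZ-R above NOZ in each row and MET, MST1R and FGFR1 in bold. MET leads in NOZ at 143.0 FPKM, whereas AXL and EPHA2 lie to the right of MET in NOZ-R.

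Of 23 other receptor tyrosine kinases with enough counts, 12 passed as higher and 4 as lower, against 30.4% and 29.8% of all tested genes. The other 7 did not pass. The median log2 change of the 23 was 0.19, against -0.01 over all tested genes. Among those called that averaged 5 CPM or more, the largest changes were increases of EPHB2 (2.33), EPHA2 (0.96) and TYRO3 (0.92) and decreases of the phagocytic receptor MERTK (-2.13), ERBB3 (-1.65) and EPHB4 (-0.91). Below that level CSF1R (1.85), STYK1 (1.53), DDR2 (1.02) and LTK (0.96) were also called higher, genes picked here with their values known. CSF1R and DDR2 entered the test only through their NOZ-R counts.

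**Figure D3:**
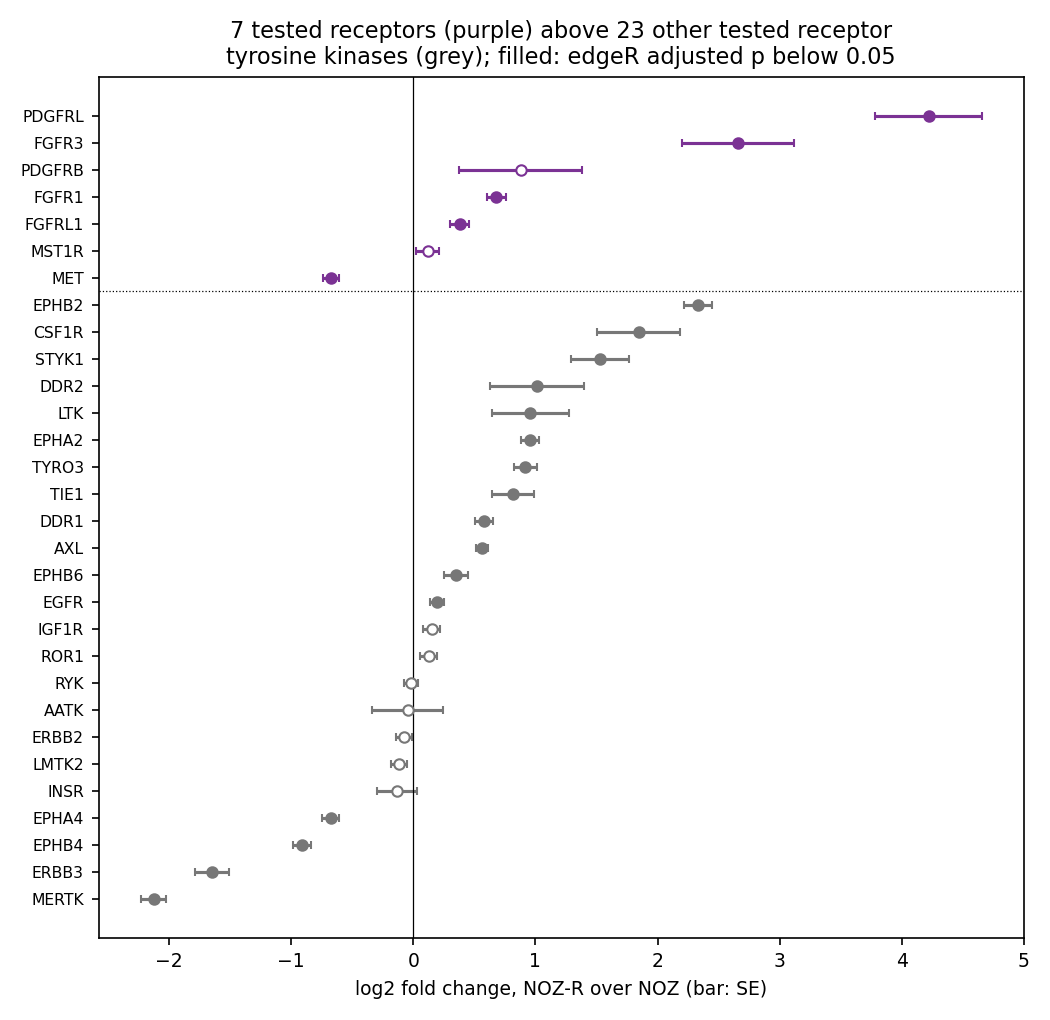
Log2 fold change of NOZ-R over NOZ with its SE for the 7 tested receptors (purple, top) and 23 other tested receptor tyrosine kinases (grey, bottom), filled where the edgeR adjusted p was below 0.05. PDGFRL at 4.22 and FGFR3 at 2.66 have wide bars, and MET at -0.67 is the only filled purple point left of 0.

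Most ligand genes had few or no counts. HGF had 2, 7 and 5 counts in the NOZ-R libraries and 1, 1 and 0 counts in the NOZ libraries, a ratio of 7.53 with an exact 95% interval from counting of 1.73 to 68.2, too few to be tested. MST1 averaged 0.926 CPM in NOZ-R and 1.20 CPM in NOZ and did not pass (log2 fold change -0.38, adjusted p by edgeR 0.342). Of 18 FGF ligands, 1 had enough counts. FGF1, which can bind all the FGF receptor kinases, had 9.34, 8.05 and 8.65 CPM in the NOZ-R libraries, against 2.60, 2.05 and 2.03 CPM in the NOZ libraries. It rose by 1.95 ± 0.163 in log2 units (SE; adjusted p by edgeR 2.29e-07), without overlap. Among the other FGF genes, 7 had 0 counts in all libraries and none exceeded 5 counts in any library.

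PDGFC was far more abundant per length than PDGFRA or PDGFRB, at 19.6 FPKM in NOZ-R and 11.5 FPKM in NOZ. PDGFC, whose dimer binds PDGFRA after proteolysis, had 121.5, 126.9 and 121.4 CPM in the NOZ-R libraries, against 62.3, 72.4 and 63.3 CPM in the NOZ libraries. It rose by 0.90 ± 0.0692 in log2 units (SE; adjusted p by edgeR 1.05e-07). PDGFB rose by 0.95 ± 0.236 (SE; adjusted p by edgeR 0.00335), at 3.57 CPM in NOZ-R and 1.87 CPM in NOZ, and PDGFA at 2.83 CPM in NOZ-R and 2.44 CPM in NOZ did not pass (adjusted p by edgeR 0.408). PDGFD had 0 counts in all libraries.

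Genes that control HGF and MSP activation included 2 inhibitors that rose. SPINT1 and SPINT2 encode membrane inhibitors of the proteases that activate HGF. SPINT1 had 38.0, 38.4 and 36.6 CPM in the NOZ-R libraries, against 17.0, 14.7 and 18.2 CPM in the NOZ libraries, with a log2 change of 1.18 ± 0.0901 (SE; adjusted p by edgeR 9.65e-08). SPINT2 rose by 0.62 ± 0.0707 (SE; adjusted p by edgeR 4.76e-06). The activating protease gene ST14, which encodes matriptase, had 8.25 to 10.3 CPM in NOZ-R and 8.70 to 11.7 CPM in NOZ, and its log2 change of -0.10 did not pass (adjusted p by edgeR 0.573). PLAU, the urokinase gene, had a log2 change of 0.16 (adjusted p by edgeR 0.0318), a call lost in 10 of 16 alternatives. Of the 10 genes of this list, 5 were tested, 3 were higher and none lower, at a median of 0.16.

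Of 14 tested co-receptor and heparan sulfate genes, 8 passed as higher and 1 as lower, against 30.4% and 29.8% of all tested genes. The other 5 did not pass, and the median of the 14 was 0.30. SDC4, which encodes the heparan sulfate proteoglycan syndecan-4, measured 684 CPM ± 10.7 in NOZ-R and 236 CPM ± 13.7 in NOZ (SD, n = 3 each), and its log2 fold change was 1.54 ± 0.0548 (SE; adjusted p by edgeR 4.63e-11). The neuropilin NRP2 rose by 0.99 and EXT1, a heparan sulfate polymerase gene, rose by 0.54. PLXNB1, a plexin known to associate with MET, fell by 0.48 in log2 units. KL and KLB, co-receptors of the hormone-like FGFs, did not exceed 6 counts in a library.

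Of 19 tested adaptors and relays, 7 passed as higher and 8 as lower, against 30.4% and 29.8% of all tested genes. The other 4 did not pass, and the median of the 19 was -0.08. The GAB docking proteins moved in opposite directions. GAB1, the main docking protein of MET, had 7.91, 9.11 and 8.98 CPM in the NOZ-R libraries, against 1.20, 1.88 and 1.56 CPM in the NOZ libraries, and rose by 2.49 ± 0.185 in log2 units (SE; adjusted p by edgeR 7.56e-08). GAB2 had 22.3, 22.1 and 24.7 CPM in the NOZ-R libraries, against 66.0, 68.1 and 66.7 CPM in the NOZ libraries, and fell by 1.54 (adjusted p by edgeR 9.09e-10). Neither gene overlapped between the lines. PIK3R1, a regulatory subunit of PI3-kinase, rose by 1.66 and the adaptor SHC1 rose by 0.91, while the catalytic subunit gene PIK3CB fell by 0.92 and SRC fell by 0.83. FRS2, the docking protein of the FGF receptors, had a log2 change of 0.10 that did not pass (adjusted p by edgeR 0.428) and was named outside the rule, after its values were seen.

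Of 16 tested genes of receptor turnover and inhibition, 6 passed as higher and 6 as lower, against 30.4% and 29.8% of all tested genes. The other 4 did not pass, and the median of the 16 was 0.05. CBLB, a ubiquitin ligase of activated receptors, measured 15.7 CPM ± 0.463 in NOZ-R and 50.9 CPM ± 0.416 in NOZ (SD, n = 3 each), with a log2 change of -1.70 ± 0.0760 (SE; adjusted p by edgeR 4.62e-10). The receptor phosphatase PTPRF fell by 1.86 and the CBL-binding adaptor SH3KBP1 fell by 0.87 in log2 units. ERRFI1, a feedback inhibitor of EGFR, rose by 0.64, the phosphatase PTPN1 by 0.54 and the adaptor SH2B3 by 0.38. CBL itself, the ligase best known for MET, had a log2 change of -0.00 (adjusted p by edgeR 0.952) and was named outside the rule, after its values were seen.

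Genes downstream of ERK, to which these receptors signal, did not move one way. All 18 were tested, and 8 passed as higher and 8 as lower, against 30.4% and 29.8% of all tested genes. The other 2 did not pass, and the median of the 18 was -0.07. IER3 rose by 1.20, EGR1 by 0.75 and SPRY4 by 0.54, while DUSP5 fell by 1.57, SPRY2 by 1.18 and ETV1 by 1.03 in log2 units. The regulators of FGFR2 splicing numbered 7, all tested, of which 3 were higher and 1 was lower; their median was 0.03. Besides ESRP1, which entered the test through NOZ-R, SRSF1 rose by 0.54, PTBP1 rose by 0.23 (a call lost in 3 of 16 alternatives) and RBFOX2 fell by 0.54.

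**Figure D4:**
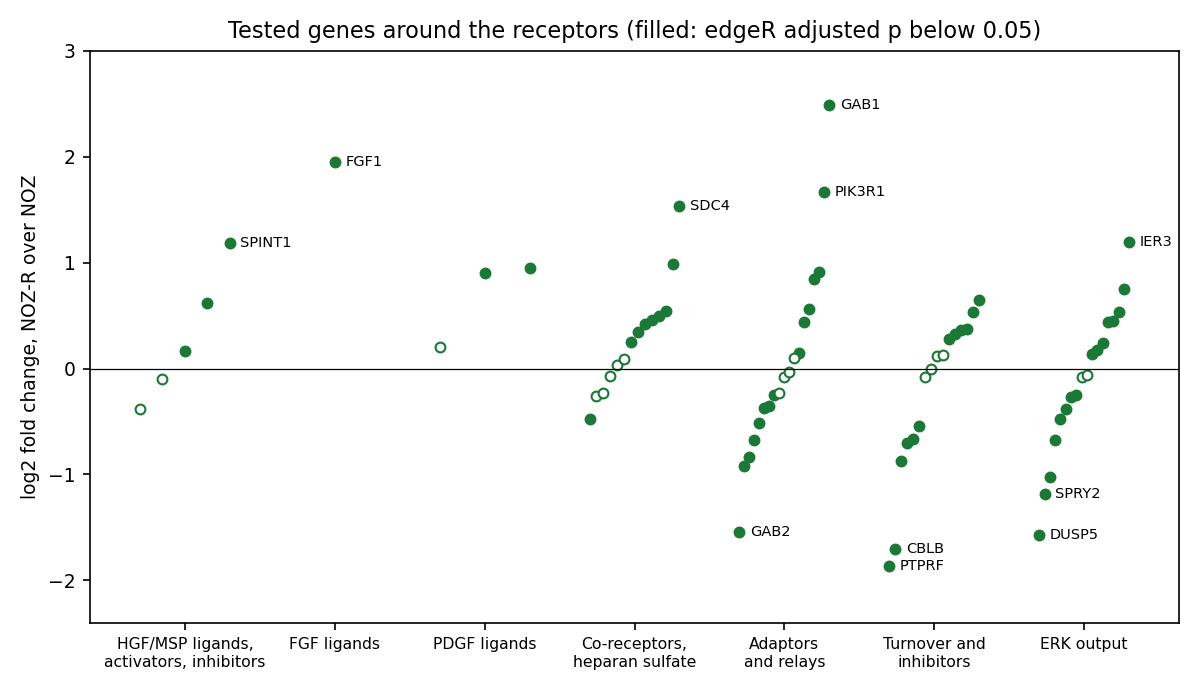
Log2 fold change of NOZ-R over NOZ for the tested genes of 7 of the lists around the receptors, ordered by size within each list and filled where the edgeR adjusted p was below 0.05. In the first list MST1 lies lowest at -0.38 and SPINT1 highest at 1.18, and the adaptors run from GAB2 at -1.54 to GAB1 at 2.49.

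**Figure D5:**
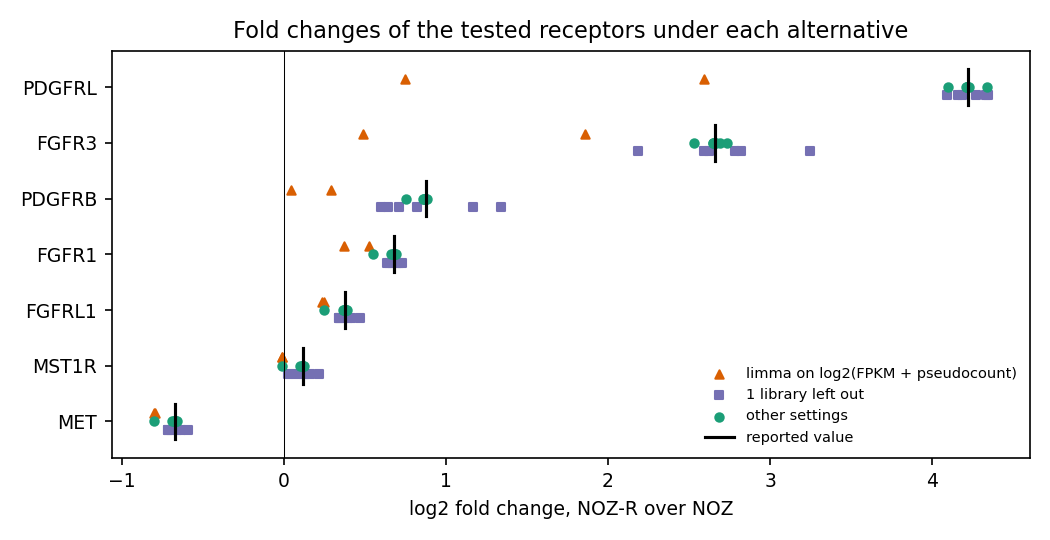
Log2 fold change of NOZ-R over NOZ of the 7 tested receptors under each alternative way of processing, with the reported value as a black line, limma on log2 FPKM with a pseudocount as triangles, fits that leave out 1 library as squares and other settings as circles. MET lies left of 0 in every fit, between -0.80 and -0.59, and MST1R is the receptor whose points lie on both sides of 0.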

How the data were processed

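RNA-seq libraries of poly-A RNA from NOZ-R and NOZ cells (3 each) were grouped by their titles. The authors deposited raw counts for each gene. Their deposited FPKM values are these counts over the summed counts of a library and a gene length that is the same in all libraries, with no correction for composition. The submitters' processing notes name fastp 0.22.0 and the build GRCh38; no source used here names the aligner, the counter, the strand setting or the annotation release.

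Counts were tested with edgeR 4.0.16 in R 4.3.3: filterByExpr (14386 genes kept), TMM factors, the quasi-likelihood test and Benjamini-Hochberg adjustment at 0.05. CPM values use TMM-scaled library sizes. The SE was taken as the absolute log2 change over the square root of F. Ratios of summed counts carry exact 95% conditional intervals and a floor of 3 counts over the group; both reflect counting error alone, because libraries had no molecular identifiers described. Positions and overlaps came from the GENCODE annotation of GRCh38, matched by symbol for 12536 of the tested genes, promoters from RefSeq. Transcript GC content was that of the longest protein-coding transcript, found for 81.2% of the tested genes. The fitting script was tested on simulated counts.

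The members and lists were chosen with earlier results of these data known. Named were all 10 receptors, up to 3 increases and 3 decreases per list among called genes averaging 5 CPM or more, all tested ligands, HGF, MST1, ESRP1 and ESRP2, the nearest tested neighbours of called receptors and the 2 closest patterns among genes of at least 10 CPM; IDs without symbol were left out there. As alternatives, scaling used library size alone, upper-quartile factors or DESeq2 size factors; filtering used none or 1 CPM in 3 libraries; and testing used the Wald test of DESeq2 1.42.0 or limma 3.58.1 on log2(FPKM + 1) and log2(FPKM + 0.1). A replicate block, a threshold of 0.01 and the removal of each library in turn were also tried.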

Additional observations from a re-analysis of the deposited data

How the results depend on the processing

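The calls of all 7 tested receptors kept their side of the threshold in every alternative in which they could be fitted (16 each, 15 for PDGFRB, which the filter of 1 CPM removed). Wherever a filter was used, FGFR3 and PDGFRL entered only through their NOZ-R counts, so their kept calls are a description. The number of receptors called lower was 1 throughout, and the number called higher was 4 or 5, the added gene being PDGFRA where it could be tested. In the fits that left out 1 library PDGFRA entered only through its NOZ-R counts, so its calls there are a description. Across alternatives the log2 fold change of MET ran from -0.80 to -0.59, FGFR1 from 0.37 to 0.73, FGFRL1 from 0.24 to 0.47, FGFR3 from 0.49 to 3.25 and PDGFRL from 0.75 to 4.34. The lowest values of FGFR3 and PDGFRL came from log2(FPKM + 1), whose pseudocount exceeds their FPKM. MST1R turned sign with scaling by library size alone (-0.012), with log2(FPKM + 1) (-0.0090) and with log2(FPKM + 0.1) (-0.0093), and did not pass in any alternative. These 3 settings apply no composition factor: scaling by library size alone put the median of all genes at -0.14, against -0.01 with TMM, and gave 3316 higher and 5468 lower genes, against 4379 and 4284.

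Among genes named beside the receptors, signs turned for 4 that had not passed. ESRP2 was at -0.12 with library size alone, -0.0085 with upper-quartile factors, -0.073 with log2(FPKM + 1), -0.12 with log2(FPKM + 0.1), and between -0.087 and 0.10 with 1 library left out. TK1, the gene second closest to MST1R in pattern, was at -0.014, -0.0085 and -0.0085 with library size alone, log2(FPKM + 1) and log2(FPKM + 0.1). TSPAN17, the closest to MST1R, was at -0.00064 with library size alone, and ST14 ranged from -0.19 to 0.047 with 1 library left out (positive only without NOZ replicate 1). The cause was not tested.

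With the replicate number as a block, MET was at -0.67, FGFR1 at 0.68, FGFR3 at 2.69, FGFRL1 at 0.38 and PDGFRL at 4.22, and 4324 genes were higher and 4180 lower. Same-numbered libraries did not deviate together (correlations of 0.068, -0.022 and -0.036), and of the NOZ-R libraries only replicate 1 correlated best with its own number. With 3 libraries per line this cannot decide whether the numbers pair the samples, and the labels do not say. Depth limits FGFR2, FGFR4, PDGFRA, PDGFRB and HGF, which had at most 14 counts in any library.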
